A study of Mus musculus with 4 samples.

Results

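The insulin-like growth factor (IGF) genes examined here encode the ligands IGF1 and IGF2, the receptors IGF1R and IGF2R, and the binding proteins IGFBP2 to IGFBP7. They were taken by gene symbol from the 4 deposited expression files, and all 10 had a row among the 55387 rows. RNA sequencing was carried out on brown adipose tissue (BAT) of 15-week-old male mice of a C57BL/6 background, with 2 Sox4f/f controls and 2 Sox4-MKO littermates, 1 mouse per library. Sox4f/f mice carry floxed alleles of Sox4, which encodes an HMG-box transcription factor, and no Cre, although their sample label reads WT. Sox4-MKO mice carry the same floxed alleles together with Myf5-Cre, which acts in Myf5-positive precursors that also give rise to skeletal muscle. Endothelial and blood-derived cells of the depot come from other lineages, and whole tissue was sequenced, although the labels name the cell type as brown adipocytes.

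IGF1 is made in the liver and in many tissues under growth hormone, and together with IGF2 it signals through the tyrosine kinase receptor IGF1R to promote growth and survival. IGF2R, also known as the cation-independent mannose 6-phosphate receptor, carries IGF2 to the lysosome. The binding proteins hold the ligands in blood and in the matrix, prolong their life and restrict their access to the receptor. Adipocyte precursors depend on IGF1 and insulin for differentiation, and both receptors for these hormones contribute to brown fat mass.

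Values are FPKM, the fragments of a transcript divided by its length and by the mapped fragments of its library, so they can be compared between genes per length. Depth was estimated at 12200000 to 16600000 fragments per library from genes with a single annotated transcript, whose smallest FPKM show what 1 fragment is worth. A gene was tested when its mean FPKM exceeded 1 in either genotype, with limma on log2(FPKM + 1), and all log2 fold changes are on this scale, where changes of low genes appear too small. Of 12877 genes tested, 16.2% had an unadjusted p under 0.05, 7.95% higher and 8.28% lower in Sox4-MKO, and 0% had a Benjamini-Hochberg adjusted p under 0.05, the smallest being 0.191. After rescaling of the libraries without mitochondrially encoded genes and Ucp1, the counts at an unadjusted p under 0.05 moved from 1024 higher and 1066 lower to 1322 higher and 745 lower. With 2 mice per genotype, an exact two-sided permutation test of a single gene cannot give a p below 0.333. A gene is called below when its unadjusted limma p was under 0.05, the p rule of the study, and no call passed adjustment.

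The level of Sox4, the targeted gene, was not lower in every library labelled Sox4-MKO. It was 1.98 FPKM in Sox4f/f mouse 1, 1.06 FPKM in Sox4f/f mouse 2, 0.981 FPKM in the library labelled Sox4-MKO mouse 1 and 3.06 FPKM in the library labelled Sox4-MKO mouse 2. The last thus held the most Sox4 mRNA of the 4, and the log2 fold change of 0.20 (adjusted p = 0.843 by limma, standard error 0.43) was not lower under the Sox4-MKO label. Exons of Sox4 overlap those of Gm26735 on the other strand in GENCODE M21, and the strand setting of counting is not given. Whole tissue also holds cells of other lineages. The paper reported much less SOX4 protein in BAT of younger Sox4-MKO mice. What the mRNA level says of the genotype of the library labelled Sox4-MKO mouse 2 was not tested. Skeletal muscle markers also differed. The summed level of 12 of them, among them Acta1 and Ckm, was 197 and 734 FPKM in Sox4f/f, 14217 FPKM in the library labelled Sox4-MKO mouse 1 and 2611 FPKM in that labelled mouse 2, and 10 of the 12 were called higher. Brown adipocyte markers were present in every library, with a summed level of 8 markers of 8165 to 8393 FPKM in Sox4f/f and 4286 to 4928 FPKM in Sox4-MKO, and 6 of the 8 were called lower. All directions that follow rest on the labels, and Sox4-MKO stands below for the libraries labelled so.

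In the libraries labelled Sox4-MKO, Igf1 and the binding protein genes Igfbp4, Igfbp5 and Igfbp6 were 1.88 to 2.63 times as high as in Sox4f/f by the ratio of the means, whereas the log2 fold changes of both receptor genes, Igf2, Igfbp3 and Igfbp7 lay between -0.16 and 0.29 and were not called. Of the 10 genes, 9 passed the expression filter, each of them in both genotypes, and Igfbp2 did not. Among these 9, 4 were called higher and 0 lower, against 7.95% and 8.28% of all genes tested. The median log2 fold change was 0.29 over the 9 genes and -0.05 over all genes tested. The genotypes did not overlap at 6 of the 9, against 51.3% of all genes tested. At 5, both libraries labelled Sox4-MKO lay above both Sox4f/f libraries, as they did at 21.7% of all genes tested, and at 1, Igf2r, both lay below, as at 29.6% of all genes. The 10 genes were chosen with earlier results of these libraries known, so the counts describe them and carry no test of their own.

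**Figure D1:**
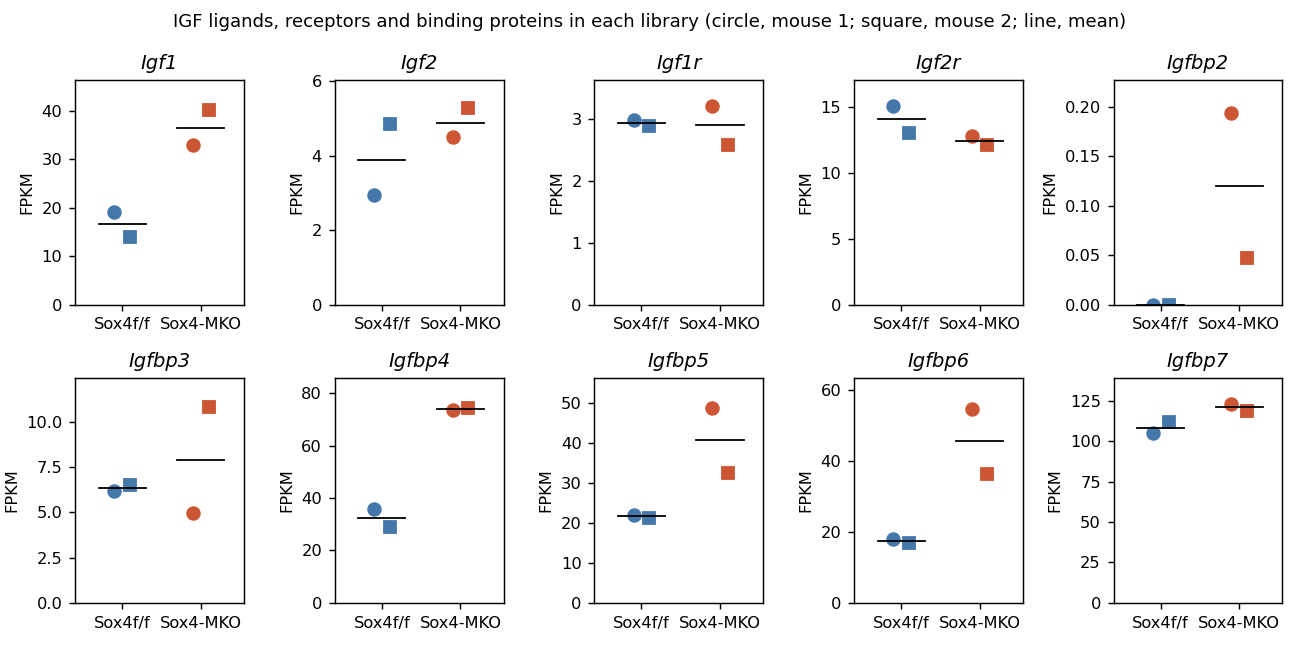
FPKM of the 10 IGF genes, 1 panel per gene with its own axis from 0, in libraries labelled Sox4f/f (blue) and Sox4-MKO (orange); circles are mouse 1, squares are mouse 2 and lines are the means of 2 mice. Igf1, Igfbp4, Igfbp5 and Igfbp6 are higher in both libraries labelled Sox4-MKO, which lie far apart from each other at Igfbp5 and Igfbp6. Igf1r, Igf2 and Igfbp3 overlap between the genotypes.

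Igf1 was the more abundant ligand gene in every library. It lies on chromosome 10 (GRCm38) from 87858265 to 87937042 on the plus strand. Its level was 19.1 and 14.0 FPKM in Sox4f/f mice 1 and 2, and 32.9 and 40.1 FPKM in Sox4-MKO mice 1 and 2. Both libraries labelled Sox4-MKO stood above both controls, and the lowest of them exceeded the highest control by more than the gap between the controls. The mean rose from 16.6 ± 3.59 to 36.5 ± 5.10 FPKM (SD, n = 2 mice each), a ratio of 2.20. On the log2 scale the difference was 1.10 (standard error 0.20), with an unadjusted p of 0.0036 and an adjusted p of 0.196 by limma. It lay between 0.89 and 1.31 when single libraries were left out and remained called.

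Igf2, an imprinted gene expressed mainly in the embryo and fetus, lies on chromosome 7 from 142650766 to 142666816 on the minus strand. It was listed at 2.95 and 4.84 FPKM in the controls and at 4.49 and 5.27 FPKM in Sox4-MKO, so that the genotypes overlapped. The log2 fold change was 0.29 with a standard error of 0.25 (adjusted p = 0.593 by limma), and it was 0.57 without Sox4f/f mouse 2 and 0.0072 without Sox4f/f mouse 1. Its exons overlap those of Gm49394 on the same strand and of the antisense gene Igf2os in GENCODE M21, so part of its value could belong to these genes. Igf1 made up 86.6% and 74.4% of the summed FPKM of the ligand genes in Sox4f/f and 88.0% and 88.4% in Sox4-MKO.

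The receptor genes showed no call. Igf1r, on chromosome 7 from 67952827 to 68233668 on the plus strand, had low levels of 2.98 and 2.89 FPKM in Sox4f/f and 3.21 and 2.58 FPKM in Sox4-MKO. The libraries labelled Sox4-MKO thus fell on either side of the controls, and the log2 fold change was -0.02 with a standard error of 0.19 (adjusted p = 0.970 by limma). The rescaling described above turned this sign, giving 0.034. Igf2r, on chromosome 17 from 12682406 to 12769664 on the minus strand, had 15.1 and 13.1 FPKM in the controls against 12.8 and 12.1 FPKM in Sox4-MKO. Its genotypes did not overlap, but the gap between them was smaller than the gap between the control mice. The means were 14.1 ± 1.45 FPKM (Sox4f/f) and 12.5 ± 0.456 FPKM (Sox4-MKO) (SD, n = 2 each), with a log2 fold change of -0.16 and a standard error of 0.14 (adjusted p = 0.601 by limma). Per length, Igf2r mRNA was the more abundant of the pair in every library.

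The binding protein genes differed from each other. Igfbp4, whose product binds both ligands and mostly restrains IGF1, is on chromosome 11 from 99041244 to 99054392 on the plus strand. It had 35.7 and 29.0 FPKM in Sox4f/f and 73.4 and 74.3 FPKM in Sox4-MKO. The libraries labelled Sox4-MKO were nearly alike and both far above the controls. The mean rose from 32.3 ± 4.72 to 73.8 ± 0.614 FPKM (SD, n = 2 each) and the ratio was 2.28, with a log2 fold change of 1.17, a standard error of 0.14 and an unadjusted p of 0.00067 (adjusted p = 0.191 by limma). It lay between 1.03 and 1.32 when single libraries were left out and remained called.

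Igfbp6 encodes the binding protein that prefers IGF2 over IGF1 and lies on chromosome 15 from 102144362 to 102149511 on the plus strand. Its level was 18.0 and 16.8 FPKM in Sox4f/f and 54.8 and 36.5 FPKM in Sox4-MKO. The controls were close to each other, whereas the libraries labelled Sox4-MKO differed from each other by about as much as the lower of them differed from the controls. The ratio of the means was 2.63 and the log2 fold change 1.32, with a standard error of 0.22 and an unadjusted p of 0.0026 (adjusted p = 0.196 by limma), and it was called with each library left out. Since Igfbp6 has a single annotated transcript, of 1112 nucleotides, its depth could be estimated at 272 and 227 fragments in Sox4f/f and 778 and 673 fragments in Sox4-MKO, so counting error was small beside the difference.

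Igfbp5 encodes a binding protein found in the matrix of connective tissue and muscle, and is on chromosome 1 from 72857932 to 72874884 on the minus strand. It had 22.1 and 21.2 FPKM in Sox4f/f and 48.8 and 32.6 FPKM in Sox4-MKO, again without overlap and with the wider spread among the libraries labelled Sox4-MKO. The mean rose from 21.6 ± 0.631 to 40.7 ± 11.5 FPKM (SD, n = 2 each), and the log2 fold change was 0.85 with a standard error of 0.22 and an unadjusted p of 0.014 (adjusted p = 0.227 by limma). The log2 fold change was 0.57 when Sox4-MKO mouse 1 was left out and 1.14 when mouse 2 was, both still called. The call was lost without Sox4f/f mouse 1 (unadjusted p = 0.071 by limma) and without Sox4f/f mouse 2 (unadjusted p = 0.083 by limma), while the log2 fold changes stayed at 0.88 and 0.82.

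Igfbp3 and Igfbp7 were not called. Igfbp3, whose product carries most of the IGF in blood as part of a ternary complex, is on chromosome 11 from 7206086 to 7213923 on the minus strand. It had 6.17 and 6.52 FPKM in Sox4f/f, and 4.98 and 10.8 FPKM in Sox4-MKO. Sox4-MKO mouse 1 was below and mouse 2 above both controls, so the log2 fold change of 0.19 (adjusted p = 0.807 by limma, standard error 0.35) became 0.68 without mouse 1, which was called at an unadjusted p of 0.030 by limma, and -0.30 without mouse 2. Igfbp7, a low-affinity relative abundant in vessel walls, is on chromosome 5 from 77349240 to 77408041 on the minus strand. It was the most abundant of the 10 genes, with 105 and 112 FPKM in Sox4f/f and 123 and 118 FPKM in Sox4-MKO, a log2 fold change of 0.16 (adjusted p = 0.509 by limma, standard error 0.11). Its exons overlap those of Polr2b on the other strand.

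Igfbp2, which encodes a binding protein secreted by white preadipocytes as they differentiate, was at the limit of detection. It lies on chromosome 1 from 72824503 to 72852474 on the plus strand. It was listed at 0 in both Sox4f/f libraries and at 0.194 and 0.047 FPKM in Sox4-MKO, which corresponds to an estimated 3.23 and 1.02 fragments. A value of 3 fragments would be between 0.139 and 0.188 FPKM in the 4 libraries, so no fold change is given.

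The order of the levels was similar in both genotypes. In Sox4f/f it ran from Igfbp7 through Igfbp4, Igfbp5, Igfbp6, Igf1, Igf2r, Igfbp3, Igf2 and Igf1r to Igfbp2. Of the neighbours in that order, Igfbp6 and Igf1, Igf1 and Igf2r, and Igf2 and Igf1r had overlapping values. In Sox4-MKO, Igfbp6 came before Igfbp5 and the rest of the order was the same. There, Igfbp6 and Igfbp5, Igfbp5 and Igf1, and Igfbp3 and Igf2 overlapped. The gap between Igf1 and Igf2r, absent in Sox4f/f, spanned 12.8 to 32.9 FPKM in Sox4-MKO.

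The makeup of the binding protein transcripts shifted with these changes. The summed FPKM of the 6 binding protein genes was 187 and 185 in Sox4f/f and 305 and 273 in Sox4-MKO. Igfbp7 took 56.2% and 60.3% of this sum in Sox4f/f and 40.3% and 43.4% in Sox4-MKO. Igfbp4 took 19.1% and 15.7% against 24.0% and 27.2%, and Igfbp6 9.62% and 9.07% against 18.0% and 13.4%. Igfbp5 took 11.8% and 11.4% against 16.0% and 11.9%, so that Sox4-MKO mouse 2 was near the controls. The share of Igfbp3 overlapped, at 3.30% and 3.52% against 1.63% and 3.95%. The ratio of summed binding protein to summed ligand FPKM was 8.47 and 9.81 in Sox4f/f and 8.17 and 6.01 in Sox4-MKO. These sums are descriptions of transcript levels, and no protein was measured.

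**Figure D2:**
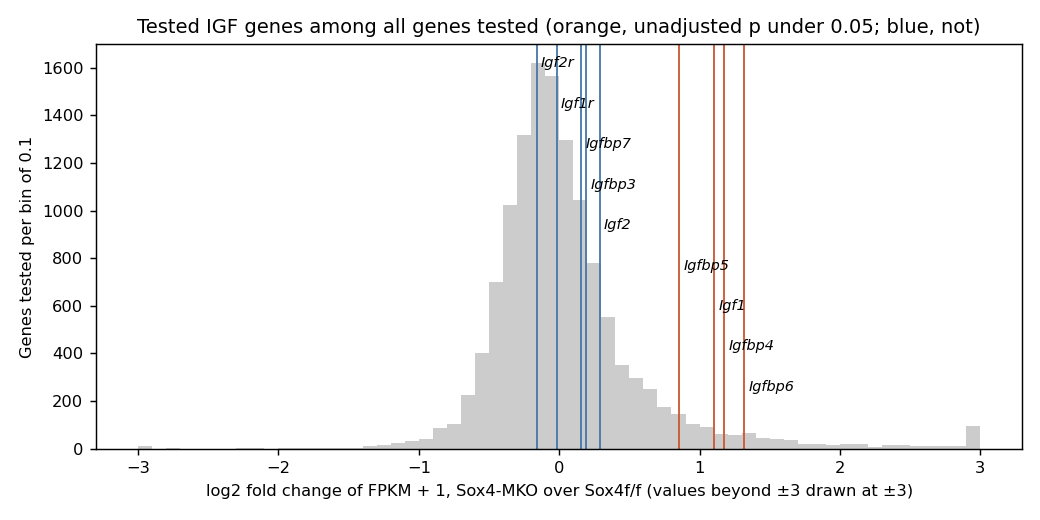
Histogram of the log2 fold change of FPKM + 1, Sox4-MKO over Sox4f/f, for all 12877 genes tested, with a line for each of the 9 tested IGF genes. Igfbp5, Igf1, Igfbp4 and Igfbp6 (orange, called) lie in the right tail between 0.85 and 1.32, and the others (blue) lie between -0.16 and 0.29, near the bulk of the genes.

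The sequences around the start sites of the 4 called genes are shown because these genes were higher together. They are windows of 300 bases, with 250 before and 50 from the RefSeq transcript start, on GRCm38.p6 and written along the strand of the gene. Capitals mark matches to 4 motifs, searched on both strands. ACAAAG is a form of the core recognised by SOX factors and is called the SOX core below. The SOX4 site that the paper mutated in Ebf2, AACAAGT, does not contain it and was not searched for. The predicted SOX4 site that the paper gives for Ucp1 and Prdm16, AACAAAG, does contain it. TCCC and GGGA separated by any 2 bases are the palindrome recognised by EBF factors. TTCNNNGAA is the palindrome recognised by STAT factors, and TATAAA is the TATA box. The windows are chr10:87860861-87861160 on the plus strand for Igf1, chr11:99040994-99041293 on the plus strand for Igfbp4, chr1:72874816-72875115 on the minus strand for Igfbp5 and chr15:102143936-102144235 on the plus strand for Igfbp6. The Igf1 window lies inside the gene as GENCODE M21 draws it, since the RefSeq start is downstream of the first GENCODE start. The Igfbp6 window ends at 102144235, before the GENCODE M21 start at 102144362, so it lies wholly outside that gene as drawn there. Which start was used in these libraries is not known from FPKM per gene.
Igf1: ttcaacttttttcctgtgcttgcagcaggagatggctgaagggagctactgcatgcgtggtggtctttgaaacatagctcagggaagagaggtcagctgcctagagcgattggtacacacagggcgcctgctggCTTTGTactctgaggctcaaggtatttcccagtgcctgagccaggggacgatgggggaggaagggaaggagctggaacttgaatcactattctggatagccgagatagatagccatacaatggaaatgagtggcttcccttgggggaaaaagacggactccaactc
Igfbp4: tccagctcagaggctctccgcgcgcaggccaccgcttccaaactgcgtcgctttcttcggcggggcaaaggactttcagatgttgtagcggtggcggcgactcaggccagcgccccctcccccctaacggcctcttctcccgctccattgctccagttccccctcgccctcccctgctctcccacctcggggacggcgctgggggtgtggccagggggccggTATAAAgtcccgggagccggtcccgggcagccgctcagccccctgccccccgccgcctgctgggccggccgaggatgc
Igfbp5: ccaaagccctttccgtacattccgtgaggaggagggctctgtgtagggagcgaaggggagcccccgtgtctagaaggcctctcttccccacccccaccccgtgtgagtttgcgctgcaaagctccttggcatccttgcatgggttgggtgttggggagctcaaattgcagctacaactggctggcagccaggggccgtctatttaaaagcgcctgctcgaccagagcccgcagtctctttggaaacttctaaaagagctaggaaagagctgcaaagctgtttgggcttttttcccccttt
Igfbp6: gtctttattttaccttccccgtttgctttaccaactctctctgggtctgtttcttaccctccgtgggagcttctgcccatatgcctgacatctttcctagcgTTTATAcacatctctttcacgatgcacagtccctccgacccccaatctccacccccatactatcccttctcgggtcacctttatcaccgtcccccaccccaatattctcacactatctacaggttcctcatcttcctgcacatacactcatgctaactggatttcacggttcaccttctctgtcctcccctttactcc

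The Igf1 window held the SOX core on the reverse strand, 116 bases before the start, and the Igfbp4 window held a TATA box 28 bases before the start. The match in Igfbp6 was to the TATA box on the reverse strand, 148 bases before the RefSeq start, which is not the GENCODE M21 start. None of the 4 motifs was found in the Igfbp5 window. RefSeq gave 14 such windows for the 10 genes. The SOX core was in 2 of the 14, those of Igf1 and Igf1r, against 18.7% of 32817 windows of all genes, and the TATA box was in 2 of the 14, against 13.6%. The EBF palindrome was in 0 of the 14 and in 0.905% of all windows, and the STAT palindrome in 0 of the 14 and in 8.29% of all windows. A match describes letters and not binding, and no match says only that these letters are not in this window.

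Other genes of the IGF axis were taken from a list of 50, of which 37 passed the expression filter. Of these, 35 passed in both genotypes, and among them 9 were called higher and 0 lower, against 7.95% and 8.28% of all genes tested, with a median log2 fold change of 0.15. The other 2, Ccn3 and Ccn5, passed through the Sox4-MKO group alone, and Ccn5 was called higher. The counts over the 37 genes, 10 higher and 0 lower in all libraries, were 5 higher and 1 lower without Sox4f/f mouse 1, 4 higher and 2 lower without Sox4f/f mouse 2, 7 higher and 1 lower without Sox4-MKO mouse 1, and 7 higher and 0 lower without Sox4-MKO mouse 2. In the growth hormone group, 2 of 7 tested genes were called higher. Ghr, the growth hormone receptor, had 166 and 167 FPKM in Sox4f/f and 201 and 230 FPKM in Sox4-MKO. Its log2 fold change of 0.36 (adjusted p = 0.272 by limma, standard error 0.12) was no longer called without Sox4f/f mouse 1, Sox4f/f mouse 2 or Sox4-MKO mouse 2 (unadjusted p = 0.143, 0.137 and 0.075 by limma). Igfals encodes the acid-labile subunit of the circulating IGF complex. It had 5.28 and 1.60 FPKM in the controls against 12.2 and 7.56 FPKM in Sox4-MKO, without overlap. Its log2 fold change of 1.40 (adjusted p = 0.285 by limma) fell to 0.76 without Sox4f/f mouse 2, and with no FPKM filter it just missed the call (unadjusted p = 0.0503 by limma). Its unadjusted p by limma was 0.131 without Sox4f/f mouse 2, and leaving out Sox4-MKO mouse 1 or mouse 2 gave 0.188 or 0.073.

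In the group of proteases that cut binding proteins and their inhibitors, 5 of 11 genes were tested. Of these 5, 3 were called higher, against 7.95% of all genes tested. Htra3, a secreted serine protease with an IGFBP-type domain, had 26.3 and 30.2 FPKM in Sox4f/f and 52.8 and 62.5 FPKM in Sox4-MKO. The genotypes were well apart, and the log2 fold change of 1.00 (adjusted p = 0.196 by limma, standard error 0.15) was called with each library left out. Its relative Htra1, which cleaves IGFBP5 among other matrix proteins, had 23.3 and 28.1 FPKM against 41.3 and 37.0 FPKM, with a log2 fold change of 0.59, not called without Sox4f/f mouse 1 (unadjusted p = 0.074 by limma) or Sox4-MKO mouse 1 (unadjusted p = 0.058 by limma). Plau, which encodes urokinase, had 4.93 and 5.20 FPKM against 9.68 and 6.91 FPKM. The log2 fold change was 0.60, or 0.38 with Sox4-MKO mouse 1 left out, and the call was kept without Sox4-MKO mouse 2 and lost otherwise, with unadjusted p of 0.136, 0.157 and 0.123 by limma without Sox4-MKO mouse 1, Sox4f/f mouse 1 and Sox4f/f mouse 2.

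Among the other proteins with an IGFBP-type domain, 6 of 10 genes were tested. Of the 4 that passed in both genotypes 0 were called, and the call in this group was that of Ccn5. This matricellular gene had 0.736 and 0.610 FPKM in Sox4f/f and 2.90 and 1.71 FPKM in Sox4-MKO. It passed the filter through the Sox4-MKO group alone, as did Ccn3, so a higher value was needed for it to be tested, and its log2 fold change was 0.96 (adjusted p = 0.241 by limma), not called without Sox4f/f mouse 1 (unadjusted p = 0.061 by limma) or mouse 2 (unadjusted p = 0.083 by limma). Ccn1, an immediate early gene, had 5.38 and 24.0 FPKM in Sox4f/f and 7.62 and 9.24 FPKM in Sox4-MKO, and its direction rested on Sox4f/f mouse 2, with a log2 fold change of -0.43 in all libraries and 0.56 without that mouse. Without Sox4f/f mouse 1 it was -1.41 and called (unadjusted p = 0.0079 by limma). Crim1, a transmembrane protein with this domain, overlapped at 7.39 and 8.26 FPKM against 9.56 and 7.52 FPKM.

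The group of receptor partners and adaptors had all 16 genes tested, with 3 called higher, 0 lower and a median log2 fold change of -0.06. Pik3r1, the regulatory subunit of PI 3-kinase, had 26.4 and 23.9 FPKM in Sox4f/f and 39.0 and 50.2 FPKM in Sox4-MKO. Its log2 fold change was 0.79 (adjusted p = 0.211 by limma, standard error 0.17), and the call was lost without Sox4f/f mouse 2 (unadjusted p = 0.054 by limma). Pik3cb, a catalytic subunit, had 3.77 and 4.39 FPKM against 7.28 and 9.57 FPKM, with a log2 fold change of 0.88 (adjusted p = 0.214 by limma), not called without Sox4f/f mouse 1 (unadjusted p = 0.063 by limma). Grb10, an imprinted adaptor that dampens insulin and IGF1 receptor signalling, had 8.17 and 5.44 FPKM against 13.2 and 11.4 FPKM. Its log2 fold change of 0.79 (adjusted p = 0.241 by limma) kept its call without Sox4f/f mouse 1 and lost it when Sox4f/f mouse 2, Sox4-MKO mouse 1 or Sox4-MKO mouse 2 was left out (unadjusted p = 0.086, 0.103 and 0.057 by limma).

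In the group of the Igf2 and Igf2r loci and Igf2 mRNA binding, 3 of 6 genes were tested. Of these 3, 1 was called higher, against 7.95% of all genes tested. It was H19, with the largest log2 fold change of the 37 genes. H19 is the imprinted noncoding RNA gene next to Igf2, on chromosome 7 from 142575529 to 142578143 on the minus strand, and is strongly expressed in fetal tissue and in skeletal muscle. It had 2.41 and 5.25 FPKM in Sox4f/f and 140 and 51.0 FPKM in Sox4-MKO, a log2 fold change of 4.21 (adjusted p = 0.192 by limma, standard error 0.57) that stayed between 3.49 and 4.93 with each library left out. H19 followed the summed skeletal muscle markers, both being highest in Sox4-MKO mouse 1, then in Sox4-MKO mouse 2, Sox4f/f mouse 2 and Sox4f/f mouse 1, and the part of muscle RNA in its change was not tested. Igf2, its neighbour, did not follow that order. Airn, a noncoding RNA transcribed across Igf2r from the other strand, overlapped between the genotypes at 4.91 and 6.81 FPKM against 6.20 and 3.97 FPKM.

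**Figure D3:**
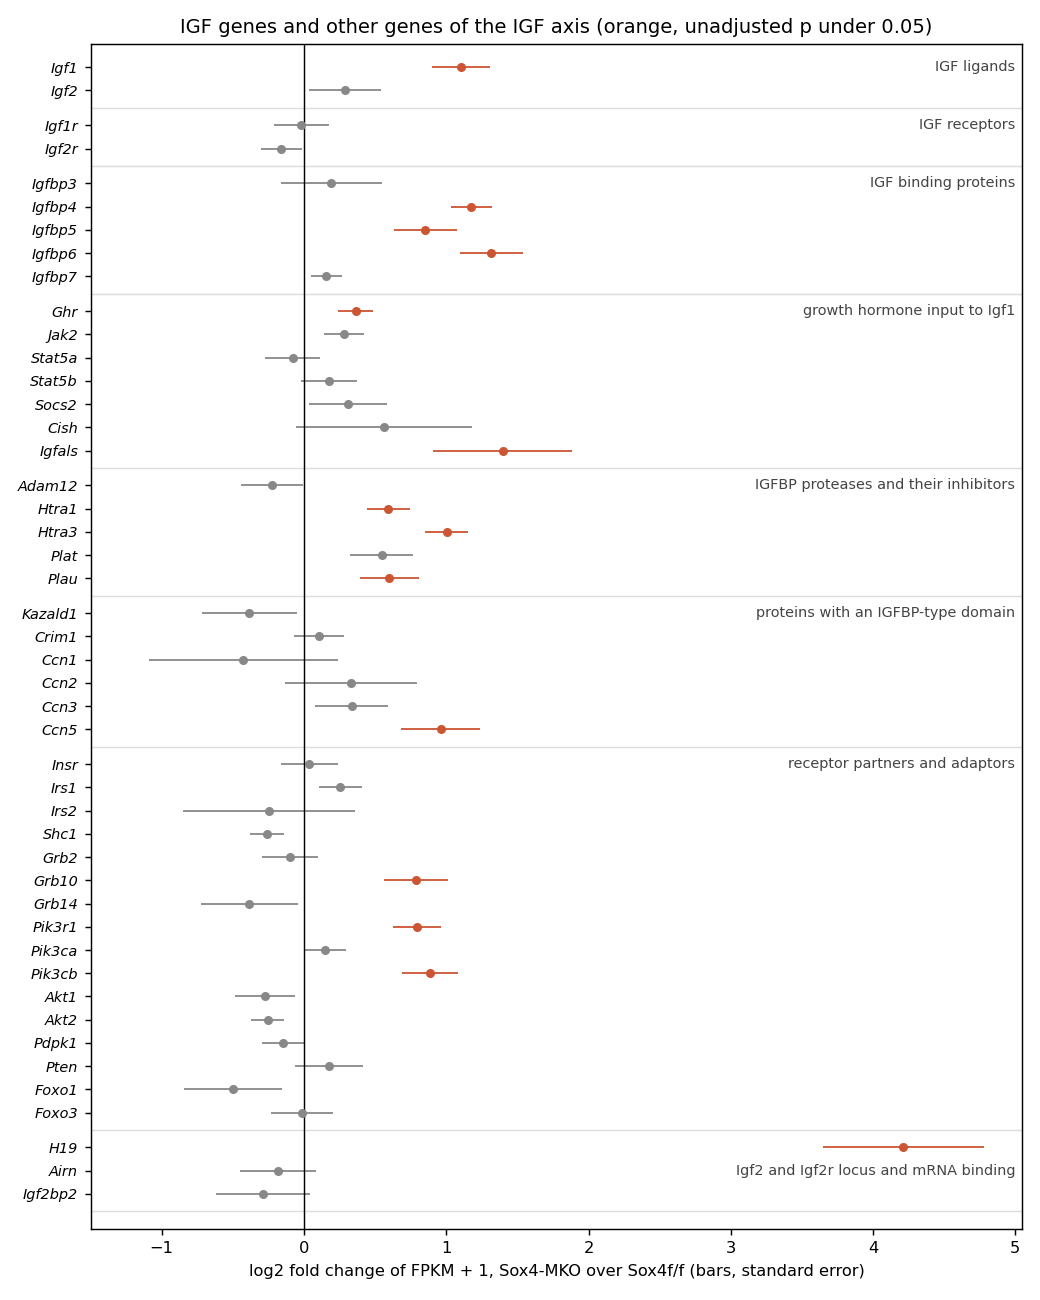
Log2 fold change of FPKM + 1, Sox4-MKO over Sox4f/f, for the 9 tested IGF genes and the 37 tested genes of the wider IGF axis, by group; points are limma estimates from 2 mice per genotype and bars are standard errors. All 14 called genes (orange) lie to the right of 0, and H19 at 4.21 lies far beyond the others.

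Summed markers of some other cell types were also higher in Sox4-MKO, whereas those of others were lower or overlapped between the genotypes. In bulk tissue, fewer cells of a type and less RNA per cell cannot be told apart. The summed level of 11 fibroblast and adipocyte progenitor markers, such as Pdgfra, Dpt and Col1a1, was 420 to 458 FPKM in Sox4f/f and 850 to 926 FPKM in Sox4-MKO, and of the 10 that passed the filter in both genotypes 9 were called higher. The other, Dpp4, passed through the Sox4-MKO group alone and so had to be higher to be tested. Macrophage markers summed to 133 to 181 FPKM against 252 to 293 FPKM, with 6 called higher of the 9 that passed in both genotypes, and Fcgr1 passed through the Sox4-MKO group alone. Mast cell markers summed to 13.7 to 16.0 FPKM against 41.9 to 47.4 FPKM, with 4 of 5 called higher. Tendon and fascia markers were near the limit of detection in Sox4f/f, at 0.607 to 0.719 FPKM in sum against 5.69 to 9.13 FPKM, and 1 of 6, Thbs4, passed the filter, through the Sox4-MKO group alone. Endothelial markers were lower in sum, at 343 to 423 FPKM against 237 to 304 FPKM, with 2 of 10 called lower. By log2 fold change 8 were lower and 2, Emcn and Vwf, were higher. At 4 of the 10, both libraries labelled Sox4-MKO lay below both controls, as at 29.6% of all genes tested. Of the 8 adipocyte markers 1 was called higher and 2 lower, of the 9 mural markers 1 was called higher, and of 4 tested Schwann cell markers 0 were called. These 3 lists overlapped between the genotypes in sum, with 9077 to 11985, 185 to 240 and 61.5 to 90.1 FPKM over the 4 libraries. Lymphocyte markers had 6.22 to 8.21 FPKM in Sox4f/f and 8.59 to 13.9 FPKM in Sox4-MKO, with 1 of 3 tested called higher. No marker of these lists was listed at 0 in every library. Over all genes tested, 7.95% were called higher and 8.28% lower.

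Set against the fibroblast and progenitor markers, 3 of the 4 called genes overlapped between the genotypes. This comparison was chosen after the values were known. The share of all genes tested that overlap when divided in this way was not computed. Before division, 51.3% of all genes tested did not overlap. The summed fibroblast and progenitor markers were themselves 2.02 times as high in Sox4-MKO by the ratio of the means. The overlaps below therefore describe these values and are not a result about the 4 genes. Per 100 FPKM of these markers, Igf1 had 4.55 and 3.06 FPKM in Sox4f/f and 3.55 and 4.72 FPKM in Sox4-MKO. Igfbp4 had 8.49 and 6.32 against 7.93 and 8.74, and Igfbp5 5.26 and 4.62 against 5.27 and 3.83, so these 3 genes overlapped on this scale. Igfbp6 did not overlap, at 4.28 and 3.66 in Sox4f/f and 5.92 and 4.30 in Sox4-MKO, although the gap was small. Against the macrophage markers the same 3 genes overlapped and Igfbp6 did not, whereas per 100 FPKM of adipocyte markers all 4 genes were higher in both libraries labelled Sox4-MKO. These are ratios within a library, and which cells held the transcripts was not measured. The part of any cell type in the differences was not tested.

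**Figure D4:**
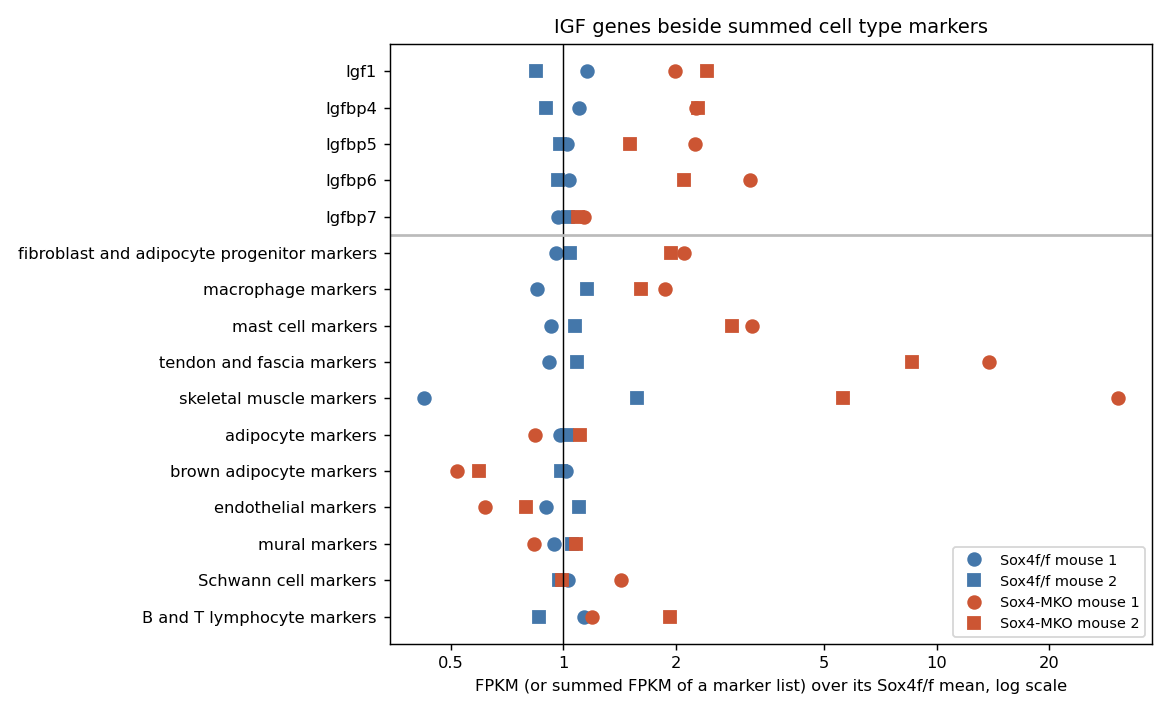
FPKM of 5 IGF genes and summed FPKM of 11 marker lists in each library, divided by the Sox4f/f mean and drawn on a log axis; blue, Sox4f/f; orange, Sox4-MKO; circle, mouse 1; square, mouse 2. Igf1, Igfbp4, Igfbp5 and Igfbp6 lie between 1.51 and 3.15 in Sox4-MKO. In Sox4-MKO mice 1 and 2, fibroblast and progenitor markers lie at 2.11 and 1.94, and macrophage markers at 1.87 and 1.61. Mast cell markers lie at 3.20 and 2.82, and skeletal muscle markers reach 30.5 in Sox4-MKO mouse 1 and 5.61 in mouse 2.

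The skeletal muscle signal was unequal between the libraries labelled Sox4-MKO, and the 4 called genes did not all follow it. Igfbp5 and Igfbp6 were higher in Sox4-MKO mouse 1, which had the most muscle RNA, whereas Igf1 was higher in mouse 2 and Igfbp4 was nearly the same in both. Without Sox4-MKO mouse 1, the log2 fold changes were 1.24 for Igf1, 1.18 for Igfbp4, 0.57 for Igfbp5, 1.03 for Igfbp6 and 0.68 for Igfbp3. The library kept in that fit still had 2611 FPKM of skeletal muscle markers in sum, against 197 and 734 FPKM in Sox4f/f. Leaving out mouse 1 thus did not remove the muscle difference, and the part of muscle RNA in these genes was not tested.

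Across the 4 libraries, the profile nearest to that of Igf1 among all genes tested was that of Enpep, which encodes an aminopeptidase, at a distance of 0.062 on the log2 scale after each gene was centred on its mean. Cela1, at 0.128, and Fgf10, which encodes a growth factor made by mesenchymal cells, at 0.154, came next. For Igf2 the nearest were Ebi3 at 0.049, Parm1 at 0.068 and Clec4n at 0.073. Ebi3 had 0.524 and 1.22 FPKM in Sox4f/f and 1.16 and 1.36 FPKM in Sox4-MKO. Clec4n had 0.392 and 1.21 FPKM against 0.989 and 1.30 FPKM. Both lay near the filter and passed it through the Sox4-MKO group alone, so a higher mean there was needed for them to be compared. With 4 libraries many genes share a profile, and the distances are given as a description.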

How the data were processed

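RNA sequencing libraries of BAT from 2 Sox4f/f and 2 Sox4-MKO mice were used, grouped by their titles. The authors deposited 1 FPKM value per gene symbol and library, with 55387 rows. The submitters' processing notes name mm10, Cufflinks 2.1.1 and Cuffdiff, and the aligner, the gene annotation and the strand setting of counting are not given in the sources used here. The labels describe a column kit and a stranded mRNA library, the methods TRIzol and a TruSeq library. Since FPKM are not counts, no count test was made. limma 3.58.1 in R 4.3.3 modelled log2(FPKM + 1) by genotype alone, with a trended prior, on genes whose mean FPKM exceeded 1 in either genotype, and the code was tested on simulated data. p-values are two-sided. They set the difference between genotypes against a variance between mice that is moderated by the prior drawn from all genes tested. Coordinates are those of GENCODE M21 (GRCm38, the build of mm10), matched by symbol, and promoter windows are from RefSeq on GRCm38.p6. Depth came from genes with a single annotated transcript of at least 1500 nucleotides. Of the list genes, 5 were matched through RefSeq synonyms.

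The members and lists were chosen with earlier results of these data known. Named genes were the 10 IGF genes, Sox4, the called genes of each IGF axis group or its most abundant genes where fewer than 2 were called, and the 3 profiles nearest to Igf1 and Igf2. Alternatives were other pseudocounts, filters and scalings, a replicate block, an untrended prior and leaving out each library. Figures were drawn with matplotlib 3.10.9.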

Additional observations from a re-analysis of the deposited data

How the results depend on the processing

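Igf1, Igfbp4, Igfbp5 and Igfbp6 kept their direction and their call under pseudocounts of 0.1 and 0.01, no FPKM filter, an averaged FPKM above 5, a shift to a common median, a rescaling without mitochondrially encoded genes and Ucp1, quantile normalization, the replicate block and a prior without trend. The number of IGF genes called was 4 under each of these and 3 to 5 with each library left out, and their adjusted p ranged from 0.099 to 0.705 over all alternatives. No source states that mouse numbers pair the mice, and deviations of same-numbered mice from their group means correlated at -0.012 across genes. With the replicate block, 1908 genes of all tested, 4 IGF genes and 9 of the wider axis were called, Ghr being lost (unadjusted p = 0.062 by limma), and Ghr was also lost after scaling to a common median (unadjusted p = 0.068 by limma) and with a prior without trend (unadjusted p = 0.070 by limma). Igfals lost its call with no FPKM filter (unadjusted p = 0.0503 by limma). The median log2 fold change of the IGF genes was 0.85 with an averaged FPKM above 5, where fewer genes were tested, and 0.16 to 0.57 with each library left out. The number of all genes called was 813 to 2258 with each library left out, lowest without Sox4f/f mouse 1 and 1063 without Sox4f/f mouse 2, and that of wider axis genes 6 to 8, in each case with fewer samples in the fit. Their split of 10 higher and 0 lower became 5 and 1 without Sox4f/f mouse 1, 4 and 2 without Sox4f/f mouse 2, 7 and 1 without Sox4-MKO mouse 1, and 7 and 0 without Sox4-MKO mouse 2. Rescaling moved the calls from 1024 higher and 1066 lower to 1322 and 745, and turned the sign of Igf1r to 0.034. With each library left out, signs turned within ranges of -0.14 to 0.10 for Igf1r (positive without Sox4-MKO mouse 2), -0.30 to 0.68 for Igfbp3 (negative without Sox4-MKO mouse 2, and called without Sox4-MKO mouse 1), -1.41 to 0.56 for Ccn1 (positive without Sox4f/f mouse 2, and called without Sox4f/f mouse 1), -0.049 to 0.26 for Crim1 (negative without Sox4-MKO mouse 1), -0.45 to 0.084 for Airn (positive without Sox4-MKO mouse 2, and 0.017 without Sox4f/f mouse 2) and -0.32 to 0.71 for Sox4 (negative without Sox4-MKO mouse 2, and -0.071 without Sox4f/f mouse 2). In fits with 1 library left in a genotype, that library is assumed to vary like the others. The causes of these shifts were not tested beyond the smaller numbers named. Depth limits Igfbp2 and the other genes with few estimated fragments.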

Other observations

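Several genes of the IGF axis lay below the expression filter and were not tested. Stc2, which encodes a stanniocalcin that inhibits the pappalysin proteases, had 0.332 and 0.253 FPKM in Sox4f/f mice 1 and 2 and 0.770 and 0.656 FPKM in Sox4-MKO mice 1 and 2. Pappa, which encodes the protease that releases IGF from IGFBP4, had 0.278 and 0.169 FPKM in the controls and 0.156 and 0.133 FPKM in Sox4-MKO. Esm1, a proteoglycan gene of endothelial cells, had 0.069 and 0.039 FPKM against 0.257 and 0.173 FPKM. Igfbp1, Igfbpl1, Igf2bp1 and Adam28 were listed at 0 in all 4 libraries, and Igf2bp3, an embryonic RNA-binding protein gene, at 0.015 and 0.035 FPKM against 0.033 and 0.306 FPKM. These genes were named after their values were seen, and no fold change is given for them.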
